A study of Mus musculus with 12 samples.

Results

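Imprinted genes are expressed from 1 parental copy, and 31 of them were followed in RNA of neonatal mouse cortex, out of 51912 genes counted. They were taken from a list of known imprinted genes by symbol, whatever their level, and all 31 symbols were found in the count tables. Counts were above 0 for 30 of them, and 25 passed the filter on low counts and were tested. The genes lie in 17 domains, which are stretches of a chromosome whose imprint is set together.

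The study deleted both genes for histone H3.3, H3f3a and H3f3b, in mouse cortex and sequenced RNA at postnatal day 0. H3.3 is the histone H3 variant that is placed in chromatin outside DNA replication. The dKO-E group (4 libraries) carried the deletion of both genes driven by Emx1-Cre, which acts in the dorsal progenitors that form cortical excitatory neurons and glia. The dKO-N group (4 libraries) carried the same deletion driven by Neurod6-Cre, which acts in excitatory neurons that have stopped dividing. The third group (4 libraries) is labelled control, and the sources used here do not give the alleles or Cre status of those animals. Whole cortex was lysed, so cells outside either Cre lineage, such as interneurons, vessels and meninges, added RNA in every group. Nothing states that each library is its own animal, and p-values then measure library-to-library spread, part of which may be technical.

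Imprints are set by DNA methylation that a parent's germ cell places on a control region, and the mark is kept on that copy through later divisions. In the mouse the zinc finger protein ZFP57 and its partner TRIM28 hold many of these marks by binding a methylated hexamer, TGCCGC. Paternally expressed genes such as Igf2 and Peg3 are often described as promoting growth, and several maternally expressed genes, such as Cdkn1c and H19, as restraining it. In the brain several domains matter for neurons, among them the Prader-Willi/Angelman domain and the Dlk1-Dio3 domain.

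The promoters of imprinted genes that passed a test are shown because such genes differ in how CpG-rich their start is and in whether the hexamer occurs there. H19, which also passed, has no entry in the table used. Where a gene has several windows, 1 with the most CpG pairs is shown. Each run is a RefSeq window of GRCm38.p6 from 250 bases before to 50 bases after a start, and capitals mark TGCCGC or its reverse complement GCGGCA. The windows are Plagl1 (chr10:13090582-13090881, plus strand), Rasgrf1 (chr9:89909525-89909824, plus strand), Snrpn (chr7:60005150-60005449, minus strand), Meg3 (chr12:109540746-109541045, plus strand) and Mest (chr6:30737800-30738099, plus strand).
Plagl1: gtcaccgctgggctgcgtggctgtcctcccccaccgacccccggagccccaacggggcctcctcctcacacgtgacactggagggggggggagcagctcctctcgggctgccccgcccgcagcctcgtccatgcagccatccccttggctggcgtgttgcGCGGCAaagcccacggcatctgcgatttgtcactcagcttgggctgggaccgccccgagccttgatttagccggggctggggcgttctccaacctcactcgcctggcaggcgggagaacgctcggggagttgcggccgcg
Rasgrf1: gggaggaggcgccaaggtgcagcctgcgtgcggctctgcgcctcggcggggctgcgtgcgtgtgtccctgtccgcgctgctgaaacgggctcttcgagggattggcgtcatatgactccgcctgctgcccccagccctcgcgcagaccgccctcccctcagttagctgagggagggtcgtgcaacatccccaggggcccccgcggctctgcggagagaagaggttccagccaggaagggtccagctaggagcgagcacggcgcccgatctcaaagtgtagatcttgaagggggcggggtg
Snrpn: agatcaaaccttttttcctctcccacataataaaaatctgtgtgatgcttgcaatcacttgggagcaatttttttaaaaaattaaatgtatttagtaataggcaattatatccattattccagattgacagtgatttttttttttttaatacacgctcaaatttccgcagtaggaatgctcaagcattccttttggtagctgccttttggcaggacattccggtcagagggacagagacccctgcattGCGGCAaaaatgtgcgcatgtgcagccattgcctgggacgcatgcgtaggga
Meg3: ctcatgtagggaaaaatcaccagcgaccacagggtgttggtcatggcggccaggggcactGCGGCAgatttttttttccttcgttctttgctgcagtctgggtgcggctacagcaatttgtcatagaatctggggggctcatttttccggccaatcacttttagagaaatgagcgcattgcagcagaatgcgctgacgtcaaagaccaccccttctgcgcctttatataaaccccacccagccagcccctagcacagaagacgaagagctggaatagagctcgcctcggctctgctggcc
Mest: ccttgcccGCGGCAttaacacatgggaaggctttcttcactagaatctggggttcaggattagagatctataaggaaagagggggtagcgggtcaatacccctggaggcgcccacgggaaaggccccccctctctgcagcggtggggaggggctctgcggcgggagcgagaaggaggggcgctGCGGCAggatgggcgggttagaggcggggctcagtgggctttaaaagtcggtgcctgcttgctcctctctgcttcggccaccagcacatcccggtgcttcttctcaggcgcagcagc
The Plagl1 and Rasgrf1 windows each held 26 CpG pairs, the Mest window 17, the Meg3 window 13 and the Snrpn window 7. The hexamer, searched on both strands, occurred 2 times in the Mest window, 1 time each in the Plagl1, Snrpn and Meg3 windows and 0 times in the Rasgrf1 window. Of the windows not shown, the 3 of Snrpn held 2 to 4 CpG pairs and no hexamer, the other of Meg3 1 CpG pair and no hexamer, and the first other of Mest 8 CpG pairs and no hexamer, while the last of Mest overlaps nearly all of the one shown and held 2. In all, 5 of 11 windows (45.5%) of these 5 genes held the hexamer. Over all 39 windows of 23 imprinted genes with an entry, 9 (23.1%) held it, against 20.3% of the windows of all genes tested and 11.6% of all 32851 windows. A match describes these letters only.

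Total counts in genes ran from 1452515 to 2503581 in dKO-E libraries, from 722080 to 3502017 in dKO-N libraries and from 1974975 to 3083599 in libraries labelled control. H3f3a, a target of the deletion, was at 22.9 to 30 CPM (counts scaled to a common library size) in dKO-E libraries and at 22.1 to 37.8 CPM in dKO-N libraries. The libraries labelled control 1 to 4 held 17.7, 117, 16.4 and 121 CPM, so the libraries labelled control 1 and control 3 went against their label, and calls on the 31 genes are also given without them. H3f3b was at 167 to 180 CPM in dKO-E, at 111 to 146 CPM in dKO-N and at 76.7 to 143 CPM in libraries labelled control. It was thus not lower in either knockout and was higher in dKO-E (log2 0.69, edgeR adjusted p = 0.000707). In dKO-N H3f3b did not pass (log2 0.16, edgeR adjusted p = 0.583), but it was called higher in 1 of 23 alternatives. H3f3a did not pass in dKO-E (log2 -1.28, edgeR adjusted p = 0.228) or dKO-N (log2 -0.96, adjusted p = 0.494), and was called lower in 1 of 23 alternatives in each. Whether counted reads lie outside the deleted part is not given in the sources used here. The summed level of 8 markers of cortical excitatory neurons, all 8 of which were detected in every library, was 1160 to 1560 CPM in dKO-E, 1620 to 2310 CPM in dKO-N and 2510 to 2890 CPM in libraries labelled control, with no overlap between the 3 groups. Y-linked counts were found in dKO-E 3 and dKO-E 4 (1035 and 274 counts, against 0 to 3 in the other libraries), so by these counts dKO-E 3 and dKO-E 4 were male and the other 10 libraries female. A fit without dKO-E 1 and dKO-E 2 therefore sets male knockouts against female libraries, and there the deletion and sex cannot be told apart. With sex as a covariate, fold changes that involve dKO-E rest on dKO-E 1 and dKO-E 2 for that group. Markers of radial glia and other progenitors summed to 129 to 151 CPM in dKO-E, 160 to 187 CPM in dKO-N and 73.9 to 103 CPM in control. Of these 6 markers, 5 were detected in every library, Sox2 held 0 counts and 4 were tested. In dKO-E 2 were called higher, Vim and Insm1 (10.1% of all genes were), and Eomes had a log2 value of -0.23 (edgeR adjusted p = 0.677). In dKO-N 3 were called higher, Vim, Insm1 and Pax6 (5.04% of all genes were). In bulk RNA, fewer cells of a type and less RNA per cell cannot be told apart, and the part of these shifts in the results below was not tested. Endothelial and mural markers summed to 74.2 to 106 CPM in dKO-E and 72.7 to 101 CPM in dKO-N, below the 108 to 119 CPM of control. Summed striatal markers were lower in dKO-E without overlap (9.32 to 12.4 CPM, with 16.5 to 24 CPM in dKO-N and 16 to 25.5 CPM in control). Of these 4, 2 were tested: against control Ppp1r1b was called lower in dKO-E (log2 -1.49, edgeR adjusted p = 0.00521) and Drd1 was not (log2 -0.96, adjusted p = 0.0677). Drd2 averaged lower in dKO-E than in control (2.26 against 2.88 CPM) and Adora2a higher (2.47 against 1.99 CPM). Summed thalamic and hypothalamic markers were higher in dKO-E than in control without overlap (22.7 to 40.5 CPM, with 15 to 29.7 CPM in dKO-N and 17.6 to 19.7 CPM in control). Most of this sum was Tcf7l2, the 1 marker tested, which was not called in dKO-E (log2 0.37, adjusted p = 0.205). The ranges of interneuron, choroid plexus, meningeal and red blood cell markers overlapped between groups.

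Most imprinted genes missed the threshold in both knockouts, and the few that passed were higher. In dKO-E, 5 of the 25 tested rose (20%): Rasgrf1, H19, Plagl1, Snrpn and Meg3. Over all 11076 genes tested, 20.2% were called in this comparison in either direction and 10.1% were called higher (edgeR quasi-likelihood test, Benjamini-Hochberg adjusted p under 0.05). The total share of imprinted genes called was thus close to that of all genes. None of the 25 was called lower by edgeR, where 10.1% of all genes were; at an unadjusted p under 0.05, 9 were higher and 0 lower, and DESeq2 and limma-voom also called 0 lower. Their median log2 fold change was 0.13, against 0.007 over all genes, and 18 had a positive and 7 a negative value. In dKO-N, 1 of the 25 rose (4%), Plagl1, against 11.3% of all genes called in either direction and 5.04% called higher; the median was 0.01 against 0.014. None was called lower by edgeR, DESeq2 or limma-voom in dKO-N, against 6.29% of all genes with edgeR, and at an unadjusted p under 0.05, 2 were higher and 1 was lower. Between the knockouts, 2 of the 25 (8%) were higher in dKO-E, Meg3 and Mest, against 6.84% of all genes called in either direction and 3.11% called higher, with a median of 0.18 against -0.002. Between them 0 were lower in dKO-E with edgeR, DESeq2 or limma-voom, against 3.73% of all genes with edgeR, and at an unadjusted p under 0.05, 6 were higher and 1 was lower. Counts here use TMM scaling. With library totals in its place the median of all genes moved to 0.135 in dKO-E, 0.071 in dKO-N and 0.069 between the knockouts, the share of called genes that were higher to 73.9%, 57.8% and 65.4% (50%, 44.5% and 45.5% with TMM), and 9, 2 and 2 imprinted genes were called higher. Without the libraries labelled control 1 and control 3, the counts of imprinted genes called were 4 in dKO-E, 1 in dKO-N and 2 between the knockouts.

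**Figure D1:**
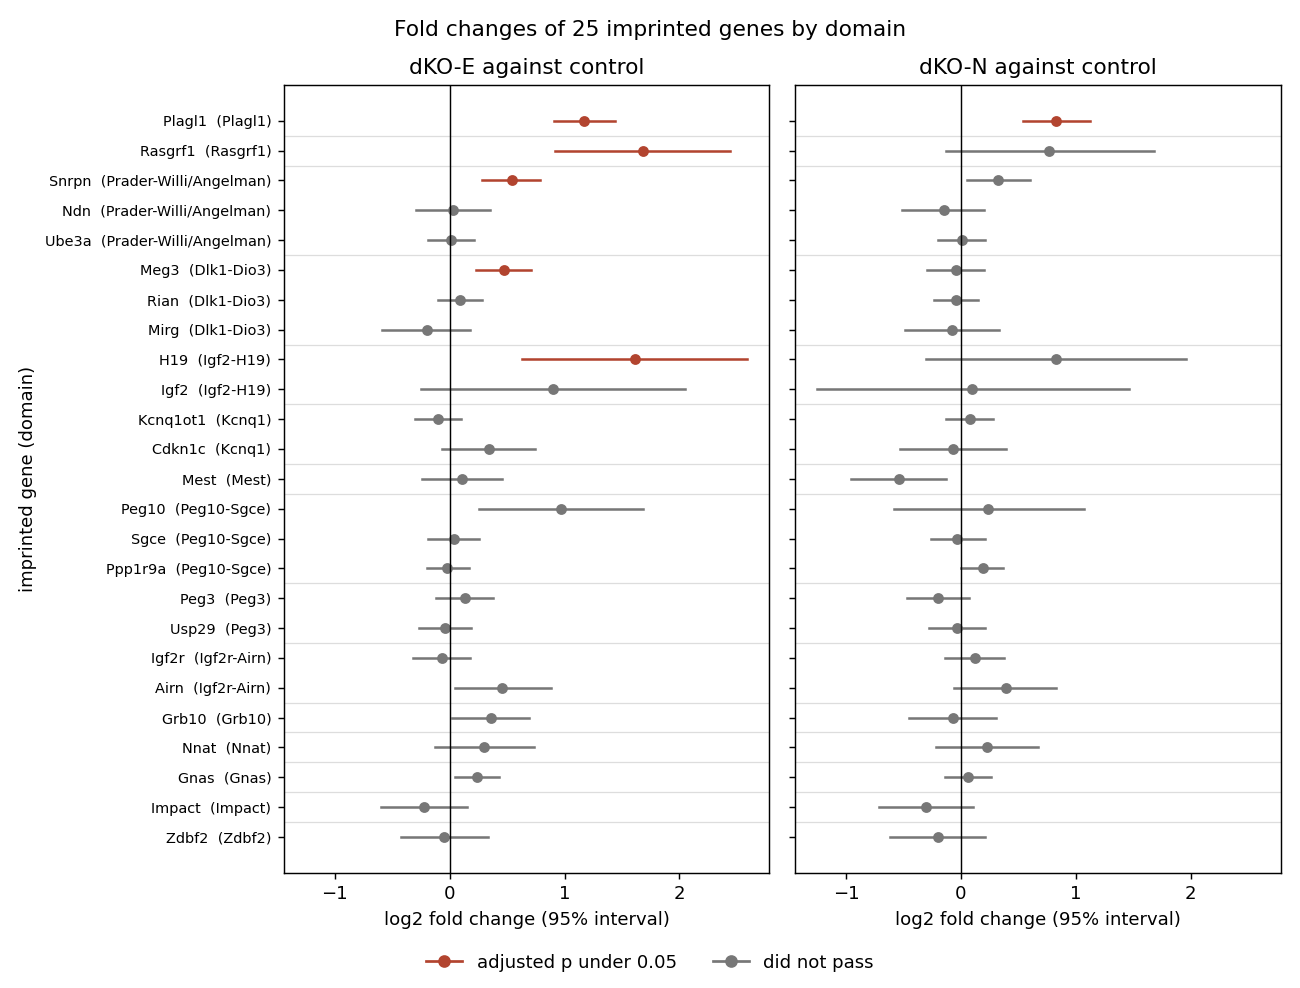
Log2 fold changes of the 25 tested imprinted genes, grouped by domain, for dKO-E (left) and dKO-N (right), each against libraries labelled control; points are fitted values, lines are 95% intervals and red marks an adjusted p under 0.05. Red points lie to the right of 0 in both panels, 5 on the left and 1 (Plagl1) on the right, and most grey intervals cross 0.

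Split by the parental copy listed for each gene, the shares called in dKO-E, all of them higher, rested on 3 and 2 genes. They lay near the share of all genes called in either direction and above the share called higher. Of the members expressed from the paternal copy, 15 of 19 were tested, and 3 rose in dKO-E (20%, with 20.2% of all genes called in either direction and 10.1% higher) and 1 in dKO-N (6.67%, with 11.3% and 5.04% of all genes), with medians of 0.13 and 0.08. Of those expressed from the maternal copy, 8 of 10 were tested, and 2 rose in dKO-E (25%), with a median of 0.05. In dKO-N the maternal genes had a median of -0.02, and 0 passed with edgeR, 0 at an unadjusted p under 0.05 and 0 with DESeq2 or limma-voom, where Plagl1 was again the 1 member called. Grb10 and Gnas were left out of this split because they are listed with an expressed copy that depends on tissue or transcript. For the other genes the listed copy was used, and which copy was expressed in this cortex was not measured.

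Per length, the members covered a wide range of levels. Values per kilobase divide CPM by the part of the gene's whole span, introns included, that is not shared with another gene on the same strand. Nnat, which encodes the small membrane protein neuronatin, was highest at 139 ± 15.7 CPM per kb in dKO-E, 134 ± 45.1 in dKO-N and 113 ± 9.66 in control (SD, n = 4 each, as in every mean below). Meg3 followed at 43.2 ± 2.42 CPM per kb in dKO-E, 30.4 ± 7.3 in dKO-N and 31.1 ± 2.98 in control, and Ndn at 16.5 ± 3.51, 15.1 ± 4.51 and 16 ± 1.22 in the same groups. Among the 25 tested genes Rasgrf1 was lowest in control at 0.14 ± 0.0829 CPM per kb, with 0.442 ± 0.0402 in dKO-E and 0.265 ± 0.106 in dKO-N.

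Plagl1 (chromosome 10, 13060504 to 13131694, plus strand, mm10) encodes a zinc finger transcription factor and is paternally expressed. It was at 61.4, 76.2, 64.9 and 74.9 CPM in dKO-E 1 to 4, at 59.9, 51.3, 51.0 and 56.2 CPM in dKO-N 1 to 4, against 35.0, 33.5, 27.2 and 26.9 CPM in libraries labelled control 1 to 4. Every dKO-E library lay above every dKO-N library, and every dKO-N library above every library labelled control. Against control Plagl1 rose 2.26-fold in dKO-E (log2 fold change 1.17, SE 0.132, edgeR adjusted p = 1.01e-08) and 1.78-fold in dKO-N (log2 0.83, SE 0.145, adjusted p = 7.11e-05). The difference between the knockouts did not pass (log2 0.34, 95% interval 0.07 to 0.62, adjusted p = 0.113). Both calls held without the libraries labelled control 1 and control 3, at log2 1.2 in dKO-E and 0.85 in dKO-N. Of 5 tested genes within 500 kb of Plagl1, 1 rose in dKO-E: Phactr2, 76 kb away, at log2 0.62 (adjusted p = 0.00597), a call that was lost without the libraries labelled control 1 and control 3 (log2 0.57, adjusted p = 0.0953) and without dKO-E 1 and dKO-E 2 (log2 0.35, adjusted p = 0.291).

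Rasgrf1 (chromosome 9, 89909908 to 90026977, plus strand) encodes a calcium-responsive exchange factor that activates Ras in neurons, and in neonatal mouse brain it is expressed from the paternal copy. It was at 47.0, 51.9, 50 and 58.2 CPM in dKO-E 1 to 4, at 42.2, 19.6, 41.4 and 21 CPM in dKO-N 1 to 4, against 7.06, 9.59, 27.6 and 21.2 CPM in libraries labelled control 1 to 4. The dKO-E libraries were close together and above all others, while dKO-N overlapped control, which itself spread widely. Rasgrf1 rose 3.2-fold in dKO-E (log2 1.68, SE 0.347, edgeR adjusted p = 0.00498). In dKO-N its log2 value was 0.77 (95% interval -0.13 to 1.68, adjusted p = 0.303), a comparison that passed without the library labelled control 3 (log2 1.19, adjusted p = 0.0328). The difference between the knockouts was 0.9 on the log2 scale (adjusted p = 0.164). It passed without the libraries labelled control 1 and control 3, with the same log2 value of 0.9 (adjusted p = 0.0167), and without either alone (adjusted p = 0.0398 without control 1 and 0.0479 without control 3). Of 5 tested genes within 500 kb, Adamts7, 136 kb away, rose in dKO-E (log2 0.58, adjusted p = 0.0132; 10.1% of all genes were called higher).

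**Figure D2:**
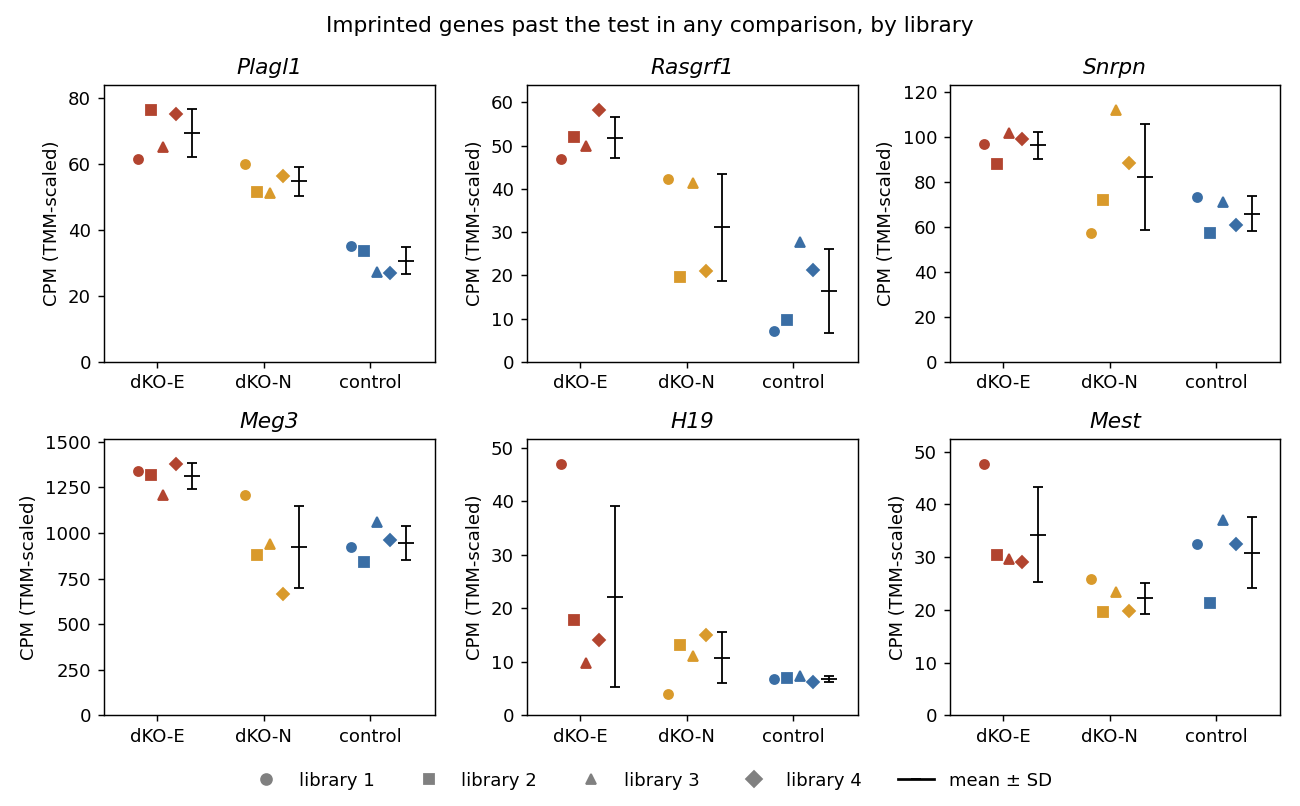
TMM-scaled CPM of the 6 imprinted genes that passed in any comparison, 1 point per library with the marker shape giving the library number, and the mean ± SD beside each group (n = 4). Plagl1 steps down over dKO-E, dKO-N and control without overlap, Rasgrf1 is even in dKO-E and spread elsewhere, and H19 in dKO-E 1 stands at 47.0 CPM.

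In the Prader-Willi/Angelman domain on chromosome 7, the paternally expressed gene Snrpn changed while its neighbours did not pass. Snrpn encodes a spliceosome protein of neurons (59982495 to 60140219, minus strand). It was at 96.7, 87.9, 102 and 99 CPM in dKO-E 1 to 4, at 57.1, 71.8, 112 and 88.6 CPM in dKO-N 1 to 4, against 73.5, 57.5, 71.3 and 61.0 CPM in libraries labelled control 1 to 4. All dKO-E libraries were above all libraries labelled control, and dKO-N spanned both. Snrpn rose 1.45-fold in dKO-E (log2 0.54, SE 0.126, edgeR adjusted p = 0.00167), and the call held without the libraries labelled control 1 and control 3 (log2 0.7, adjusted p = 0.00389). In dKO-N the log2 value was 0.32 (95% interval 0.05 to 0.6, adjusted p = 0.132), and it passed without dKO-N 1 (log2 0.43, adjusted p = 0.0295). Snrpn shares 14.3% of its span on the same strand with Snurf and a predicted gene. Genes nested in another gene of the same strand had no count in 471 of 477 cases (98.7%) here, so the values of Snrpn rest on the remaining span. Exons make up 1.37% of its whole span, so these counts do not measure the mRNA for the protein on its own. Whether the shared part holds the coding exons was not examined. The same limit applies to the Snrpn to Ube3a ratio below.

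Ube3a, the ubiquitin ligase lost in Angelman syndrome and maternally expressed in mouse neurons, averaged 190 ± 12.6 CPM in dKO-E, 187 ± 26.2 CPM in dKO-N and 188 ± 15.9 CPM in control. Its 95% intervals were -0.19 to 0.21 in dKO-E and -0.2 to 0.21 in dKO-N on the log2 scale, and it did not pass in either (adjusted p = 0.965 and 0.974 with edgeR). Ndn, which encodes the MAGE protein necdin, was at 60.8 ± 12.9 CPM in dKO-E, 55.9 ± 16.6 CPM in dKO-N and 59.2 ± 4.52 CPM in control, and did not pass (log2 0.03 in dKO-E, adjusted p = 0.93, and -0.15 in dKO-N, adjusted p = 0.666). Magel2, another MAGE gene, held 16, 12 and 23 counts in all in dKO-E, dKO-N and control and was not tested.

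The Dlk1-Dio3 domain on chromosome 12 holds Meg3, Rian and Mirg, noncoding RNAs of the maternal copy that are read in the same direction one after another and that host many small RNAs. Meg3 (109541001 to 109571726, plus strand) was the most abundant member by CPM. It was at 1340, 1320, 1210 and 1380 CPM in dKO-E 1 to 4, at 1210, 879, 939 and 667 CPM in dKO-N 1 to 4, against 921, 840, 1060 and 959 CPM in libraries labelled control 1 to 4. The dKO-E libraries all lay above those labelled control, and the lowest dKO-E library lay just above the highest dKO-N library, both rounding to 1210 CPM. Meg3 rose 1.39-fold in dKO-E (log2 0.47, SE 0.118, edgeR adjusted p = 0.00489), while in dKO-N its log2 value was -0.04 (95% interval -0.29 to 0.2, adjusted p = 0.885). The difference between the knockouts passed, with Meg3 1.43-fold higher in dKO-E (log2 0.52, SE 0.12, adjusted p = 0.00946). Without the libraries labelled control 1 and control 3, the rise in dKO-E held (log2 0.54, adjusted p = 0.022). Without dKO-E 1 and dKO-E 2 it kept its size but no longer passed (log2 0.45, adjusted p = 0.0578). The difference between the knockouts no longer passed with sex as a covariate (log2 0.54, adjusted p = 0.0562) or without dKO-E 1 and dKO-E 2 (log2 0.5, adjusted p = 0.086).

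Rian, the next gene downstream, averaged 421 ± 38.2 CPM in dKO-E, 382 ± 27.3 CPM in dKO-N and 394 ± 41.7 CPM in control (log2 0.09 in dKO-E, 95% interval -0.1 to 0.28, adjusted p = 0.549). Mirg, the microRNA host gene at the far end, averaged 24 ± 2.88, 23.5 ± 9.82 and 27.5 ± 2.32 CPM in the same groups (log2 -0.2 in dKO-E, 95% interval -0.59 to 0.18, adjusted p = 0.495). The ratio of Meg3 to Rian counts was 2.87, 3.35, 3.13 and 3.15 in dKO-E 1 to 4, 3.42, 2.4, 2.34 and 1.63 in dKO-N 1 to 4 and 2.15, 2.52, 2.61 and 2.34 in libraries labelled control 1 to 4. The dKO-E ratios were above every ratio of the libraries labelled control, whereas dKO-N ran from below to above them. On the log2 scale the ratio was higher by 0.38 in dKO-E than in control (two-sided exact permutation test, p = 0.0286, the smallest that 4 against 4 libraries allow). Meg3 to Mirg was higher by 0.68 in dKO-E, and Snrpn to Ube3a by 0.54, each with p = 0.0286 by the same exact test and without overlap. Over the 24 ratio tests made, on 8 gene pairs chosen after the values were seen, none passed adjustment (lowest adjusted p = 0.229 by exact permutation tests). Dlk1 and Rtl1, paternally expressed genes of this domain, were near the floor: Dlk1 held 10, 2 and 6 counts and Rtl1 12, 4 and 5 counts in all in dKO-E, dKO-N and control.

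**Figure D3:**
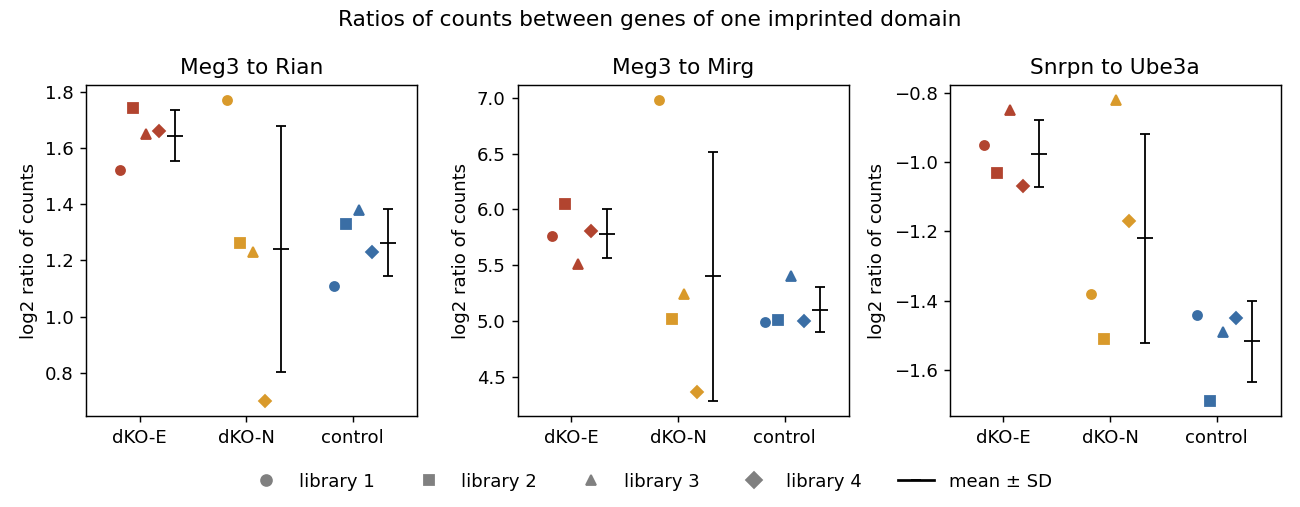
Log2 ratios of counts for Meg3 to Rian, Meg3 to Mirg and Snrpn to Ube3a in each library, with mean ± SD beside each group (n = 4); the axes do not start at 0. In all 3 panels the dKO-E points lie above the points of the libraries labelled control, and the dKO-N points spread across both.

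The Igf2-H19 domain on chromosome 7 pairs Igf2, a growth factor gene of the paternal copy, with H19, a noncoding RNA of the maternal copy (142575529 to 142578143, minus strand). H19 was at 47.0, 17.8, 9.77 and 14 CPM in dKO-E 1 to 4, at 4.08, 13.1, 11 and 15 CPM in dKO-N 1 to 4, against 6.71, 6.92, 7.34 and 6.2 CPM in libraries labelled control 1 to 4. All dKO-E libraries were above those labelled control, with dKO-E 1 far above the rest. H19 rose in dKO-E (log2 1.61, SE 0.455, edgeR adjusted p = 0.0232), and the value without dKO-E 1 was 1.02 (adjusted p = 0.0133). The call was lost without any 1 of the libraries labelled control (log2 1.57 to 1.65, adjusted p = 0.0583 to 0.0722), in a fit of dKO-E and control alone (log2 1.6, adjusted p = 0.0773), without control 1 and control 3 together (log2 1.67, adjusted p = 0.177) and without dKO-E 1 and dKO-E 2 (log2 0.77, adjusted p = 0.162). In dKO-N the log2 value was 0.83 (95% interval -0.3 to 1.96, adjusted p = 0.391).

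Igf2 was at 43.1, 18.6, 8.21 and 5.59 CPM in dKO-E 1 to 4, at 8.16, 9.33, 11 and 11.1 CPM in dKO-N 1 to 4, against 10.6, 6.39, 10.4 and 10.3 CPM in libraries labelled control 1 to 4. The dKO-E libraries lay on both sides of control, and Igf2 did not pass (log2 0.9, SE 0.521, adjusted p = 0.271). Its log2 value was 0.22 without dKO-E 1 (adjusted p = 0.685) and -0.43 without dKO-E 1 and dKO-E 2 (adjusted p = 0.493), and it passed with no filter on low counts (log2 0.89, adjusted p = 0.0407) and with sex as a covariate (log2 1.63, adjusted p = 0.000112). With that covariate the dKO-E value rests on the female libraries, dKO-E 1 and dKO-E 2, which also held the most meningeal markers. The summed level of 10 meningeal and fibroblast markers was 79.7, 26.7, 4.3 and 3.36 CPM in dKO-E 1 to 4, 1.36 to 11.7 CPM in dKO-N and 4.75 to 8.78 CPM in libraries labelled control. The libraries dKO-E 1 and dKO-E 2, which held 8 and 9 of the 10 markers, had the highest values of those markers and of both genes. The dKO-E 3 and dKO-E 4 libraries held 4 of the 10 each and were within the range of control for Igf2 or below it, but above it for H19. The part of meningeal RNA in these values was not tested.

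**Figure D4:**
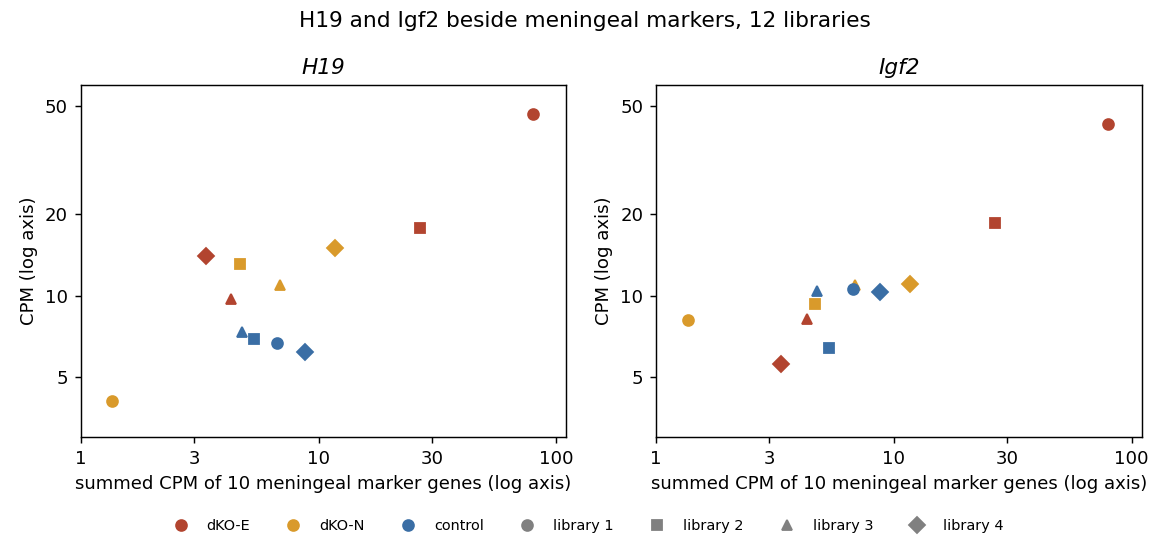
CPM of H19 (left) and Igf2 (right) against the summed CPM of 10 meningeal marker genes, both on log axes, 1 point per library (color gives the group, shape the library number). The library dKO-E 1 lies at the upper right in both panels (47.0 and 43.1 CPM at 79.7 CPM of markers), and dKO-E 3 and dKO-E 4 lie above the libraries labelled control for H19 but not for Igf2.

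In the neighbouring Kcnq1 domain neither gene passed in any comparison. Kcnq1ot1, the paternal antisense RNA that silences this domain, averaged 227 ± 20.7 CPM in dKO-E, 252 ± 40.3 CPM in dKO-N and 243 ± 9.37 CPM in control. Its log2 value in dKO-E was -0.1 (95% interval -0.3 to 0.1, adjusted p = 0.535), and its whole span overlaps Kcnq1 on the opposite strand. Cdkn1c, a maternally expressed inhibitor of the cell cycle, was at 25.5, 21.1, 25.8 and 23.5 CPM in dKO-E 1 to 4, at 19, 20.5, 16.5 and 16.8 CPM in dKO-N 1 to 4, against 27.5, 18.6, 14.3 and 13.4 CPM in libraries labelled control 1 to 4. The dKO-E libraries were above the dKO-N libraries without overlap, but the difference did not pass (log2 0.41, SE 0.224, adjusted p = 0.285). Against control, Cdkn1c passed in dKO-E without the library labelled control 1 (log2 0.63, adjusted p = 0.0357). Non-overlap between these groups with dKO-E higher was found for 5 of the 25 imprinted genes and for 5.4% of all genes, and with dKO-E lower for 0 of the 25 and 4.8% of all genes (10.2% in either direction).

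Mest, a paternally expressed gene of the alpha/beta hydrolase fold (chromosome 6, 30723547 to 30748465, plus strand), differed between the knockouts. It was at 47.7, 30.4, 29.7 and 29.1 CPM in dKO-E 1 to 4, at 25.8, 19.6, 23.4 and 19.8 CPM in dKO-N 1 to 4, against 32.5, 21.3, 37.1 and 32.5 CPM in libraries labelled control 1 to 4. Every dKO-E library lay above every dKO-N library, and control overlapped both. Mest was 1.57-fold higher in dKO-E than in dKO-N (log2 0.65, SE 0.204, edgeR adjusted p = 0.045). The call was lost in 9 of 12 fits that left out 1 library, the exceptions being control 2, control 3 and dKO-N 1; without dKO-E 1 it was log2 0.48 (adjusted p = 0.164). It was also lost without the libraries labelled control 1 and control 3 (log2 0.66, adjusted p = 0.0578) and without dKO-E 1 and dKO-E 2 (log2 0.46, adjusted p = 0.31). Against control the log2 values were 0.11 in dKO-E (adjusted p = 0.717) and -0.54 in dKO-N (adjusted p = 0.0821), which passed without the library labelled control 2 (log2 -0.68, adjusted p = 0.026). Of 7 tested genes within 500 kb of Mest, 3 rose in dKO-E: Zc3hc1 at log2 0.84, Lncpint at 0.67 and Ube2h at 0.28 (adjusted p = 0.0111, 0.0109 and 0.0328), where 10.1% of all genes were called higher and Mest itself was not called. Within the same distance, 0 of 2 tested genes near Snrpn, 0 of 5 near Meg3 and 0 of 7 near H19 were called higher in dKO-E.

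The Peg10-Sgce domain on chromosome 6 holds Peg10, a gene derived from a retrotransposon, and Sgce, which encodes epsilon-sarcoglycan, both paternally expressed. Peg10 was at 46.4, 13.8, 19.5 and 15.7 CPM in dKO-E 1 to 4, at 10.9, 16.8, 6.89 and 15.6 CPM in dKO-N 1 to 4, against 13.4, 10.1, 8.21 and 14.5 CPM in libraries labelled control 1 to 4. The groups overlapped, and dKO-E 1 was again the highest. Peg10 missed the threshold in dKO-E (log2 0.97, SE 0.338, adjusted p = 0.0508), and without dKO-E 1 its log2 value was 0.5 (adjusted p = 0.184). It passed without dKO-E 2, dKO-E 4 or dKO-N 3 (log2 1.18, 1.11 and 0.96, adjusted p = 0.00998, 0.0325 and 0.0494), and in 9 of 23 alternatives in all (lowest adjusted p = 0.000594, with no filter on low counts). Sgce, read from the other side of the same promoter region, averaged 98.1 ± 12.3 CPM in dKO-E, 90.8 ± 11.7 CPM in dKO-N and 95 ± 4.91 CPM in control (log2 0.04 in dKO-E, adjusted p = 0.858). Ppp1r9a, which encodes neurabin, an actin-binding protein of synapses, averaged 375 ± 7.58, 428 ± 57.6 and 380 ± 19.3 CPM in the same groups, and its log2 value of -0.2 between dKO-E and dKO-N did not pass (95% interval -0.39 to -0.02, adjusted p = 0.182). Asb4, at the end of the domain, held 16, 8 and 7 counts in all in dKO-E, dKO-N and control.

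The Peg3 domain on chromosome 7 showed the same single library. Peg3, a paternally expressed zinc finger gene, was at 165, 106, 115 and 131 CPM in dKO-E 1 to 4, at 121, 93.3, 82.7 and 107 CPM in dKO-N 1 to 4, against 107, 101, 137 and 122 CPM in libraries labelled control 1 to 4. The groups overlapped, and no comparison passed (log2 0.33 between dKO-E and dKO-N, adjusted p = 0.134). Usp29, a deubiquitinase gene read from the same promoter region in the other direction, was at 270 CPM in dKO-E 1 and at 191 to 195 CPM in dKO-E 2 to 4, at 159 to 251 CPM in dKO-N and at 201 to 225 CPM in control (log2 -0.04 in dKO-E, adjusted p = 0.854).

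The library dKO-E 1 held the highest value of all 12 libraries for 12 of the 25 tested imprinted genes, and for 9.06% of all genes tested. It was the highest of its own group for 14 of the 25, and for 29.7% of all genes. This library also held the highest summed markers of meninges (79.7 CPM), thalamus and hypothalamus (40.5 CPM), interneurons (376 CPM) and choroid plexus (4.57 CPM, 4 of 6 markers detected), and the lowest of cortical excitatory neurons (1160 CPM); their part in these values was not tested. The next were dKO-N 4 with 5 of the 25 (13.6% of all genes) and dKO-E 4 with 4 (8.08%). Among the genes with their highest level in dKO-E 1 were Igf2, H19, Peg10, Mest, Peg3, Usp29, Grb10 and Zdbf2.

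In the Igf2r-Airn domain on chromosome 17, Igf2r, a receptor that clears the growth factor, and Airn, the paternal RNA that runs through it in the opposite direction, did not pass. Igf2r averaged 61 ± 8.06 CPM in dKO-E, 66.8 ± 9.61 CPM in dKO-N and 63.4 ± 5.09 CPM in control. Airn averaged 43.8 ± 10.7, 37 ± 14.6 and 31.6 ± 3.75 CPM in the same groups, with log2 values of 0.46 in dKO-E (95% interval 0.05 to 0.88, adjusted p = 0.111) and 0.39 in dKO-N (adjusted p = 0.301). The dKO-E value passed without dKO-E 4 (log2 0.61, adjusted p = 0.0261) or dKO-N 4 (log2 0.46, adjusted p = 0.0189), and in 5 of 23 alternatives in all (lowest adjusted p = 0.0186).

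Of the uncalled genes that are the only listed gene of their domain, Gnas came closest to a call in dKO-E. Gnas encodes the stimulatory G protein subunit and other products of a complex locus on chromosome 2. It was at 240, 209, 224 and 211 CPM in dKO-E 1 to 4, at 193, 228, 192 and 171 CPM in dKO-N 1 to 4, against 185, 183, 178 and 201 CPM in libraries labelled control 1 to 4. All dKO-E libraries were above those labelled control (log2 0.24, SE 0.093, adjusted p = 0.0599), and Gnas passed without dKO-N 2 or dKO-N 4 (adjusted p = 0.0408 and 0.0214), and in 4 of 23 alternatives in all (lowest adjusted p = 0.00388, with library totals). Nnat was likewise above control without overlap in dKO-E, at 396, 311, 338 and 319 CPM in dKO-E 1 to 4 and 263, 302, 291 and 251 CPM in libraries labelled control 1 to 4, and did not pass (log2 0.3, adjusted p = 0.333). In dKO-N it ranged from 217 to 463 CPM. Such non-overlap with dKO-E higher was found for 7 of the 25 imprinted genes and for 12.5% of all genes, and non-overlap with dKO-E lower for 0 of the 25 and 13% of all genes.

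Grb10, an adaptor of insulin and growth factor receptors that is paternally expressed in mouse neurons, averaged 49.3 ± 13.7 CPM in dKO-E, 34.8 ± 6.46 CPM in dKO-N and 38 ± 6.58 CPM in control (log2 0.36 in dKO-E, 95% interval 0.02 to 0.69, adjusted p = 0.132), and passed in dKO-E without dKO-E 3 (log2 0.5, adjusted p = 0.0342). Impact, a paternally expressed regulator of translation on chromosome 18, averaged 23.1 ± 6.25, 20.8 ± 2.16 and 26.2 ± 3.28 CPM in the same groups. Its dKO-N libraries all lay below those labelled control (log2 -0.3, adjusted p = 0.401), the only one of the 25 to do so, against 7.19% of all genes. Plagl1 was the 1 gene of the 25 whose dKO-N libraries all lay above those labelled control, against 5.84% of all genes. Zdbf2, a zinc finger gene of chromosome 1, averaged 31.5 ± 12.6, 28 ± 5.01 and 31.4 ± 0.445 CPM (log2 -0.05 in dKO-E, adjusted p = 0.892). Dcn, which encodes the matrix proteoglycan decorin, held 17, 11 and 4 counts in all in dKO-E, dKO-N and control.

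Peg13, a paternal noncoding RNA of chromosome 15, was at 0 counts in all 12 libraries. It lies wholly inside Trappc9 on the same strand, where counts were 0 for nearly all genes, so its level was not measurable here. Kcnk9, the potassium channel gene that is maternally expressed in mouse brain from this domain, was among the other imprinted genes examined. It was at 2.61, 5.27, 7.82 and 4.47 CPM in dKO-E 1 to 4, at 4.08, 0.933, 5.51 and 1.20 CPM in dKO-N 1 to 4, against 8.48, 11.7, 9.93 and 12.9 CPM in libraries labelled control 1 to 4. Every knockout library was below every library labelled control. Kcnk9 fell in dKO-N (log2 -2.27, SE 0.453, edgeR adjusted p = 0.000409) and in dKO-E (log2 -1, SE 0.336, adjusted p = 0.0312), with 12 counts in all in dKO-N. The dKO-E call was lost without the libraries labelled control 1 and control 3 (log2 -1.22, adjusted p = 0.0612) and without any 1 of control 2, 3 and 4 and dKO-E 1, 2 and 4 (log2 -1.03 to -0.83, adjusted p = 0.0508 to 0.095).

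The rest of a wider list of 47 imprinted genes, of which 27 were tested, was called about as often as all genes. Counts per gene do not tell the parental copies apart, so whether these genes are imprinted in cortex was not tested. In dKO-E 4 rose and 2 fell (22.2% called, with 20.2% of all genes), with a median log2 value of 0.04. Those that rose were Phactr2, Gab1 (log2 0.39, adjusted p = 0.033), H13 (log2 0.28, adjusted p = 0.0275) and Inpp5f (log2 0.27, adjusted p = 0.0312), and those that fell were Kcnk9 and Jade1 (log2 -0.43, adjusted p = 0.0375). In dKO-N 1 rose, Gab1, a docking protein of growth factor receptors (log2 0.67, adjusted p = 0.000717), and 2 fell, Kcnk9 and Jade1 (log2 -0.54, adjusted p = 0.0281), with a median of -0.07 (11.1% called, with 11.3% of all genes). Between the knockouts Tssc4 was higher in dKO-E (log2 1.44, SE 0.436, adjusted p = 0.0382), 3.7% of the 27, with 6.84% of all genes. The Gab1, H13, Inpp5f and Jade1 calls in dKO-E were each lost in 6 or 7 of the 12 fits that left out 1 library, the Jade1 call in dKO-N without control 2, dKO-N 1 or dKO-N 2, and the Tssc4 call in 6 fits, with the lowest value without dKO-N 4 (log2 1.09, adjusted p = 0.302). None of the 6 calls in dKO-E was left without the libraries labelled control 1 and control 3, or without dKO-E 1 and dKO-E 2.

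Genes that set or keep imprints, together with H3.3 chaperones, numbered 24, all tested. The share called was 4.17% in dKO-E, 8.33% in dKO-N and 8.33% between the knockouts, with 20.2%, 11.3% and 6.84% of all genes, and in a fit of dKO-E and control alone 7 were called in place of 1. In dKO-E 1 rose, Ctcf, the insulator protein that binds the Igf2-H19 control region (log2 0.31, adjusted p = 0.0271), and in dKO-N 2 fell, Setdb1, a histone H3 lysine methyltransferase (log2 -0.4, adjusted p = 0.0316), and Cabin1, a subunit of the HIRA chaperone complex (log2 -0.31, adjusted p = 0.0479). The Ctcf and Setdb1 calls were lost without the libraries labelled control 1 and control 3 (adjusted p = 0.135 and 0.114). Leaving out 1 library ended the Ctcf call in 7 of 12 fits, the Setdb1 call in 5 and the Cabin1 call in 10. Between the knockouts Ezh2, the Polycomb methyltransferase, was lower in dKO-E, at 101, 120, 103 and 105 CPM in dKO-E 1 to 4 against 165, 131, 143 and 248 CPM in dKO-N 1 to 4 (log2 -0.74, SE 0.146, adjusted p = 0.00382). Ehmt1 was also lower in dKO-E (log2 -0.32, adjusted p = 0.0455), a call lost in 8 of 12 such fits, with the value nearest 0 without dKO-N 4 (log2 -0.18, adjusted p = 0.371). The Ezh2 call was lost with sex as a covariate (log2 -0.69, adjusted p = 0.0541). Of 10 genes that overlap an imprinted gene or share its transcript, 6 were tested. The lowest adjusted p among them was that of Snhg14, the long host RNA of the Prader-Willi/Angelman domain, in dKO-E (log2 -0.2, edgeR adjusted p = 0.135), where its dKO-E libraries lay below those labelled control.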

How the data were processed

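RNA of neonatal mouse cortex was measured in 12 libraries, 4 per group, with groups taken from the sample labels. Per the labels' protocols, ribosomal RNA was depleted and libraries were made by ClickSeq, which ends cDNA at random and joins adapters by click chemistry. The authors deposited raw counts per gene, 1 file per library. The build was mm10, and alignment, UMI handling and counting used STAR, UMI-tools and HTSeq, per the submitters' processing notes; the sources used here do not give versions, annotation or counting options. A UMI tags each cDNA molecule, and collapsing duplicates by it makes a count 1 molecule. Lines that name no gene stayed out: 85.188% to 88.9% of each library lay in genes.

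Symbols and positions came from GENCODE M21, which matched 51719 of 51912 identifiers (99.6%). Of 477 genes nested in an expressed gene of the same strand, 471 (98.7%) had no count, against 664 of 1632 (40.7%) nested on the opposite strand, so counts behaved as taken by strand over whole genes. After a low-count filter (filterByExpr at 10, leaving 11076 genes with 99% of counts) and TMM scaling, genes were tested in 1 fit of 12 libraries with edgeR 4.0.16 (glmQLFit, robust, and glmQLFTest; 9 residual degrees of freedom). P-values were adjusted by Benjamini-Hochberg across all genes tested and called under 0.05. CPM values are TMM-scaled, and per-length values are CPM per kb of countable span in place of the planned TPM from exonic length, because counts covered introns too. The floor was 3 counts, which is 0.857 to 4.155 CPM per library; floors and the depth behind low genes cover counting error only. The pipeline was tested on simulated counts. R 4.3.3, limma 3.58.1, DESeq2 1.42.0, Python 3.11.15, pandas 2.3.3 and matplotlib 3.10.9 were used. Each library was counted as 1 sample. No 2 libraries of a group agreed within sampling noise, but separate libraries of 1 animal could also differ by more than that.

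The 31 genes, the companion lists, markers and tests were chosen with earlier results of these data known. All 31 genes are named, with up to 4 members of each companion list that passed with the largest fold change; neighbours within 500 kb and the gene pairs for ratios were chosen after their values were seen. Alternatives covered scaling (edgeR's RLE, library totals), the filter, DESeq2, limma-voom, the groups in the fit, each library left out, a replicate block, thinning to equal depth, sex as a covariate and leaving out libraries that stand apart. Chromatin and single-nucleus data named in the series' design were not analysed here.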

Additional observations from a re-analysis of the deposited data

Results flagged for a closer look

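In each of 75 groups of 4 libraries (25 tested genes in 3 groups), the highest and lowest library were compared with the others, and 5 stood apart by more than Dixon's 95% critical value, where chance flags about 1 in 20 groups. Mest was at 47.7 CPM in dKO-E 1, against 29.1 to 30.4 CPM in the other dKO-E libraries, and Usp29 was at 270 CPM in dKO-E 1, against 191 to 195 CPM. For Ube3a, dKO-N 1 held 148 CPM, while dKO-N 2 to 4 held 197 to 204 CPM. Among libraries labelled control, Igf2 was at 6.39 CPM in control 2, against 10.3 to 10.6 CPM, and Kcnq1ot1 was at 257 CPM in control 1, against 237 to 240 CPM. The effect in dKO-E differed from the effect in dKO-N for Meg3 (by 0.52 on the log2 scale) and for Mest (by 0.65), by edgeR's test of dKO-E against dKO-N.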

How the results depend on the processing

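Of the imprinted genes called, Plagl1 in dKO-N and Plagl1, Rasgrf1 and Snrpn in dKO-E kept direction and call under all 23 alternatives run; Meg3 and H19 in dKO-E, and Meg3 and Mest between the knockouts, did not, and the cause was not tested. Directions of called genes did not reverse. For the count of imprinted genes called, the main values were 5 in dKO-E, 1 in dKO-N and 2 between the knockouts. In dKO-E it was 9 with library totals, 8 with no filter and 3 without dKO-E 1 and 2 (leaving out 1 library, 4 to 7). There it was also 8 with sex as a covariate, a fit in which the dKO-E values rest on dKO-E 1 and 2. In dKO-N it was 2 with library totals and 2 with no filter (1 to 2). Between the knockouts it was 1 with DESeq2, limma-voom, the replicate block or thinning, and 0 without dKO-E 1 and 2 (1 to 3). Of the other imprinted genes, 6 were called in dKO-E, and 3 with no filter, DESeq2 or thinning, 2 with sex, and 0 without control 1 and 3 or without dKO-E 1 and 2 (1 to 7). In dKO-N 3 were called (2 to 4). Between the knockouts 1 was called, 2 with library totals and 0 with no filter, DESeq2, the groups compared alone, the replicate block, thinning, sex, without control 1 and 3 or without dKO-E 1 and 2 (0 to 2). Of the genes that keep imprints, 1 was called in dKO-E, 4 with library totals, 7 with the groups compared alone and 0 with DESeq2, sex or without control 1 and 3 (0 to 4). In dKO-N 2 were called, 0 with DESeq2 and 1 with RLE, library totals, no filter, limma-voom, the groups compared alone, the replicate block, thinning, sex, without control 1 and 3 or without dKO-E 1 and 2 (0 to 2). Between the knockouts 2 were called, 0 with sex and 1 with no filter, DESeq2, the groups compared alone, the replicate block, thinning, without control 1 and 3 or without dKO-E 1 and 2 (1 to 3).

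Over all genes, 2238 were called in dKO-E and 1255 in dKO-N, against 1215 and 756 without control 1 and 3, and 1223 and 797 when thinned. Replicate numbers did not pair the libraries: same-numbered pairs deviated together with r of -0.124 to 0.013 (12 pairs), and the replicate block gave 1974 calls in dKO-E, 1065 in dKO-N and 500 between the knockouts. Genes with few counts (Magel2, Dlk1, Rtl1, Asb4 and Dcn) were limited by depth.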
